A study of Arabidopsis thaliana with 16 samples.

Results

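Wild-type roots of Arabidopsis thaliana were described from 4 RNA-seq libraries, chosen because their labels name the Col-0 wild type, among 16 libraries in all. The other 12 libraries come from mctp4-1, mctp3-2 and double mutants and were not used here. The wild-type libraries are replicates 1 to 4 of whole roots from 5-day-old seedlings of the Col-0 ecotype. The seedlings were untreated and grew on MS plates in long days. No transgene or allele is named for them, and the labels do not say whether the replicates came from separate sowings or how many plants were pooled. The spread between replicates given below may therefore be technical in part. All levels are FPKM, a fragment measure corrected for the size of each library and each transcript. The unit is meant to let genes of different length be set side by side. Where 4 values are listed, they stand in the order of WT replicates 1, 2, 3 and 4.

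The root is built as rings of tissue around a central stele. The epidermis, with hair and non-hair cells, takes up water and ions. The endodermis seals the stele with the Casparian strip, a lignin ring, and later with suberin, a waxy polyester. Xylem vessels carry water upwards after the death of their cells, phloem carries sugar downwards, and the stem cell niche at the tip renews all of these tissues beneath the root cap. In whole-root RNA, a lower level from fewer cells of a type and one from less RNA per cell cannot be told apart.

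A few upstream sequences are shown first, because they belong to the most abundant gene class and to clock genes that varied between the replicates. The genes were picked for holding a motif, with their levels known. Among them are CCA1 and LHY, which varied most, relative to their means, of the morning and evening clock genes listed. The sequences are the 300 bases before the annotated start of each gene, 5′ to 3′ on the strand of the gene, from the RefSeq assembly TAIR10.1. A set of 4 motifs was searched on both strands: site II (TGGGCC) and the telo-box (AAACCCTA), known from ribosomal protein genes, the evening element (AAAATATCT), bound by the morning clock proteins CCA1 and LHY, and the G-box (CACGTG), bound by light-signalling factors. A TATA motif was counted as well and is not marked. Capitals mark the matches of the 4 motifs, which do not overlap in the windows shown. Ribosomal protein genes are represented by AT3G11120, which encodes L41 and lies downstream of chr3:3480720-3481019 on the plus strand, and by AT4G27090, which encodes L14 and lies downstream of chr4:13595253-13595552 on the minus strand. The evening-phased genes are GRP7 (minus strand, chr2:9266558-9266857), TOC1 (plus strand, chr5:24674663-24674962) and PRR5 (minus strand, chr5:8358547-8358846). The morning-phased genes are CCA1 (plus strand, chr2:19245291-19245590) and LHY (minus strand, chr1:37872-38171).
AT3G11120: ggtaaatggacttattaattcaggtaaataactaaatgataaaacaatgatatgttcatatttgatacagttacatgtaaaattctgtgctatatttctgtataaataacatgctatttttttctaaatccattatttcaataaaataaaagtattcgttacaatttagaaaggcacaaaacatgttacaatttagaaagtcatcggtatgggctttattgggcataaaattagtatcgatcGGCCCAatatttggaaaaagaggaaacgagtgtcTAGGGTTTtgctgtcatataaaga
AT4G27090: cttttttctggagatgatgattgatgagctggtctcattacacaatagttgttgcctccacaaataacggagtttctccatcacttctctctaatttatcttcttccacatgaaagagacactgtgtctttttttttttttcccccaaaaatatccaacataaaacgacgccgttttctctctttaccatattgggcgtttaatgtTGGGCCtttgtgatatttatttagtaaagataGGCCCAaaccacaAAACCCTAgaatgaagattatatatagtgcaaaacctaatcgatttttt
GRP7: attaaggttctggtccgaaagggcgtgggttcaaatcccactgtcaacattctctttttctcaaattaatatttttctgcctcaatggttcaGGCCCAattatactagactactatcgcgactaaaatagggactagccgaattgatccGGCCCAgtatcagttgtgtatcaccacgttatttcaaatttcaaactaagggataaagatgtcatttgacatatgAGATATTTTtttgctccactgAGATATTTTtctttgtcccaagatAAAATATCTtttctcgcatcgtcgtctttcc
TOC1: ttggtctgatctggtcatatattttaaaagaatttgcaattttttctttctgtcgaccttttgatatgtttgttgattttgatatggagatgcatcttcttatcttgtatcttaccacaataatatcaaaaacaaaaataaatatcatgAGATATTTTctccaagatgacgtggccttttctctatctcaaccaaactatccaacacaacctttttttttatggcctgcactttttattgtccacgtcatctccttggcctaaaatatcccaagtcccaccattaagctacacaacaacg
PRR5: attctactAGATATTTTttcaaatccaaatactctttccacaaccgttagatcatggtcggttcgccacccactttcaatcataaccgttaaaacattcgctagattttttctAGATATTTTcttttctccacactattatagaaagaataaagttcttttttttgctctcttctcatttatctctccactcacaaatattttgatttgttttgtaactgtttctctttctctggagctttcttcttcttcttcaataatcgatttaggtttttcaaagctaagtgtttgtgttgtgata
CCA1: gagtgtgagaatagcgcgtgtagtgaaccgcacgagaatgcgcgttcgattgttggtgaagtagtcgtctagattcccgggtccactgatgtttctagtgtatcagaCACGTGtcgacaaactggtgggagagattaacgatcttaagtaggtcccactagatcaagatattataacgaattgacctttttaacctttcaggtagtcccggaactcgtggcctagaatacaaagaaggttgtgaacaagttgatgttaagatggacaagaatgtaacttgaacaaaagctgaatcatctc
LHY: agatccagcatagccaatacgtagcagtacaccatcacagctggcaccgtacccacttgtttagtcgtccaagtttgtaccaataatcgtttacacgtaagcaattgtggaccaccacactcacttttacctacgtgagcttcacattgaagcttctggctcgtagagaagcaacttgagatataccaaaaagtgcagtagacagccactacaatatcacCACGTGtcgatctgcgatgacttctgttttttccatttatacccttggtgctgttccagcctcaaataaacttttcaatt

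Site II stood in the 300-base windows of 171 of 382 ribosomal protein genes (44.8%) and of 3954 of 26702 protein-coding genes (14.8%). The telo-box stood in 64 of the ribosomal windows (16.8%) and in 5.16% of all windows. The windows of AT3G11120 and AT4G27090 hold both motifs. Among the 6 evening clock genes, 3 windows (TOC1, LUX and PRR5) held the evening element, against 2.83% of all windows, and GRP7, which encodes a clock-controlled RNA-binding protein, held 3 copies. Among the 5 morning clock genes, 4 windows (CCA1, LHY, PRR9 and PRR7) held the G-box, against 7.19% of all windows. The evening gene LUX held a G-box as well. The TATA motif stood in 51.0% of the ribosomal windows and in 53.3% of all windows. These matches describe letters and are not measured binding sites.

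Of 26703 protein-coding genes in the matrix, 17465 had at least 1 FPKM in all 4 libraries (65.4%). A further 1500 reached 1 FPKM in 1 to 3 libraries only, and 4773 were listed at 0 in all 4. By chromosome, the share at or above 1 FPKM in all 4 libraries ran from 63.4% on chromosome 2 to 67.0% on chromosome 5. Among other gene types the share was 44.6% of 224 lncRNA genes, 4.49% of 178 miRNA genes and 1.56% of 3911 pseudogenes. All 623 tRNA genes were listed at 0; the libraries were made with a kit for mRNA.

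Transcript abundance was concentrated in few genes. Of the summed protein-coding FPKM, 50% came from 680, 732, 820 and 895 genes in WT replicates 1 to 4. The 100 most abundant protein-coding genes held 17.7%, 17.2%, 16.2% and 15.4% of that sum. By these measures replicate 4 was the least concentrated and replicate 1 the most. The 10 most abundant held 3.12%, 3.47%, 2.76% and 2.83%, so there replicate 2 was the most and replicate 3 the least concentrated. Among genes at or above 1 FPKM the median protein-coding level was 14.7 ± 0.671 FPKM (SD, n = 4). The number of genes of any type at or above 1000 FPKM was 142, 121, 97 and 91.

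PYK10 was the most abundant protein-coding transcript, with 4038, 4840, 3898 and 4411 FPKM. It encodes a β-glucosidase that cleaves glucosinolates and fills the ER bodies of root cells. PBP1, whose protein binds PYK10, had 1387, 1637, 1377 and 1540 FPKM. The metallothionein MT2B, a small metal-binding protein, had 4195, 4398, 2649 and 2947 FPKM. PYK10 stood above MT2B in 3 libraries and below it in replicate 1, and their ranges overlapped.

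Cell wall proteins and small secreted proteins followed. The extensin EXT3, a structural wall glycoprotein, had 3422, 3556, 2929 and 3250 FPKM. AT2G43150, annotated as a proline-rich extensin-like protein, had 2736, 3080, 2081 and 2112 FPKM. LCR68, a small cysteine-rich protein, had 3128, 3027, 2042 and 1760 FPKM, with replicates 1 and 2 both above replicates 3 and 4. EXT3 was steadier, with a coefficient of variation (SD divided by the mean, CV) of 8.23%, against 27.7% for LCR68. Whether the counting used the strand is not given in the sources used here, so genes that overlap another by more than 300 bases on the opposite strand are uncertain: of those named, EXT3, ESB1, GSO1, CESA8, PLT3, KNOLLE, SIM, CYCD6;1, LUX and KCS2.

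Ribosomal proteins filled much of the remaining top ranks. A pair of L41 genes, AT3G11120 and AT1G56045, averaged 2443 ± 470 and 2261 ± 354 FPKM (SD, n = 4). AT3G60245, annotated as a zinc-binding ribosomal protein, averaged 2145 ± 352 FPKM and AT4G27090 averaged 1869 ± 166 FPKM. Their site II motifs are marked in the windows above for AT3G11120 and AT4G27090. Of the 100 protein-coding genes with the highest mean, 45 were annotated as ribosomal proteins, and 46 of their 100 upstream windows held site II. The other members of the first 20 included AAC1, the mitochondrial ADP/ATP carrier (1985 ± 146 FPKM), AT5G60390, an elongation factor of the EF-Tu family (1848 ± 157 FPKM), and RCI2B, a small membrane protein (1817 ± 480 FPKM).

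**Figure D1:**
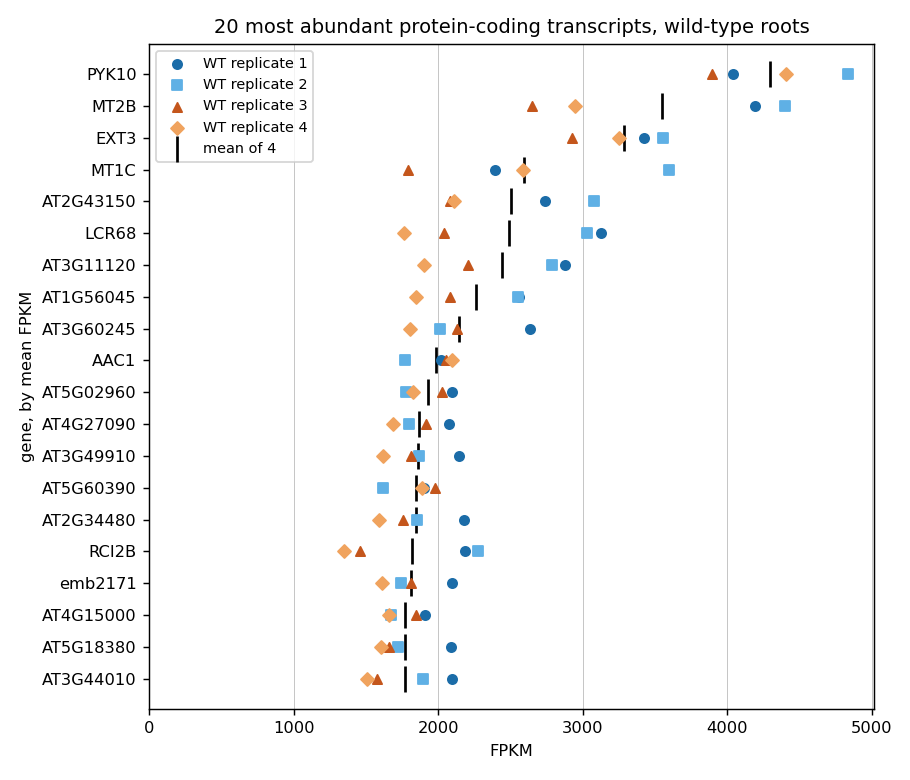
FPKM (x axis) of the 20 protein-coding genes with the highest mean in 4 wild-type root libraries, ordered by mean from the top. Points are single libraries and black bars are means; PYK10 spans 3898 to 4840 FPKM, and every pair of neighbours in the order overlaps in range.

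The order of the top genes was not fixed by these libraries. In all 19 pairs of neighbours among the top 20 the ranges of the 4 libraries overlapped, and 1 pair kept its order in every library. Of the top 20 by mean, 14 were among the top 20 of each library. The same held for 74 of the top 100 and 854 of the top 1000.

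Grouped by annotated product, ribosomal proteins took 18.6%, 16.9%, 17.2% and 15.8% of summed protein-coding FPKM (17.1 ± 1.12%, SD, n = 4). Of 382 such genes 346 had at least 1 FPKM in all 4 libraries, and their median level was 135 FPKM. Extensins and proline-rich proteins took 1.52 ± 0.227%, arabinogalactan proteins, which are wall and membrane proteoglycans, 1.36 ± 0.275%, peroxidases 1.11 ± 0.0867% and aquaporins 1.08 ± 0.0763%. Lipid-transfer proteins, which carry lipids for wax and suberin layers, were unevenly spread, with 1.41%, 1.52%, 0.875% and 0.867%. Their strongest member, AT3G53980, had 1795, 1709, 785 and 656 FPKM, so replicates 1 and 2 were high in the class and in its main gene.

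Metallothioneins and aquaporins were dominated by few members. MT1C averaged 2591 ± 752 FPKM, MT3 averaged 371 ± 19.1 FPKM and MT2A had 40.4, 31.2, 130 and 174 FPKM. MT1A was listed at 0 in all 4 libraries, while AT1G07590, annotated as a tetratricopeptide repeat protein, covers the 418 bases of the MT1A locus on the same strand and was listed at 1602 ± 420 FPKM. Which locus those fragments come from cannot be told from gene-level values. Aquaporins are water channels of the plasma membrane (PIP) and the vacuole (TIP). The vacuolar TIP1;2 had 1832, 1682, 1494 and 1465 FPKM and TIP1;1 had 1962, 1723, 1257 and 1211 FPKM. The plasma membrane channel PIP2;1 had 1317, 1168, 978 and 921 FPKM, and PIP1;2 had 1154, 1023, 865 and 805 FPKM. The 3 highest members held 84.9 ± 0.701% of summed TIP and 54.9 ± 1.28% of summed PIP FPKM (SD, n = 4). The near-identical neighbours PIP2;2 (835 ± 37.8 FPKM) and PIP2;3 (144 ± 51.3 FPKM) are uncertain, since shared reads can be split between them. The lowest of the 19 was PIP2;5, at 2.25 ± 1.11 FPKM.

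Of the 5 non-coding or unannotated genes with the highest mean, 4 owed it to 1 library. The snoRNA gene AT1G75166, 86 bases long, was listed at 33928 FPKM in replicate 1 and at 0 in the other 3. The snoRNA genes AT4G39361 and AT4G39366, each 120 bases long, were listed at 13253 and 13179 FPKM in replicate 4 and at 0 elsewhere. AT1G32670, which has no row in the TAIR10.1 table, was listed at 9176 FPKM in replicate 2 only. These single values put the snoRNA share of all FPKM at 3.34%, 0.00206%, 0.000227% and 2.85%. The 18S ribosomal RNA gene AT3G41768, by contrast, had 2492, 3173, 3598 and 1738 FPKM. The ncRNA and lncRNA classes were steadier: ncRNA genes held 0.541%, 0.579%, 0.558% and 0.536% of all FPKM, and lncRNA genes 0.0983%, 0.107%, 0.121% and 0.122%. The snRNA class was not steady, with 0.129%, 0.000346%, 0.000169% and 0.000207%.

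Genes of root cell types and of other organs were set beside the tissue label. The lists were chosen with earlier results of these data known, so the shares describe the libraries and do not test the label. Xylem, phloem and cell division genes are also not limited to roots. Of 154 genes in 11 root lists, 148 had at least 1 FPKM in all 4 libraries (96.1%), against 65.4% of all protein-coding genes. Of 33 genes of stomata and leaf hairs, shoot meristem and flower, pollen and seed storage, 1 did so (3.03%), and 20 were listed at 0 in all 4. A list of green tissue genes went the other way, with 13 of 20 (65.0%), described further on. The exception among the 33 was the petal and stamen factor AP3, with 2.32, 1.41, 2.16 and 1.16 FPKM. The stomatal regulators MUTE and FAMA, the shoot meristem genes WUS and STM, and the seed storage gene CRU3 were listed at 0 throughout.

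**Figure D2:**
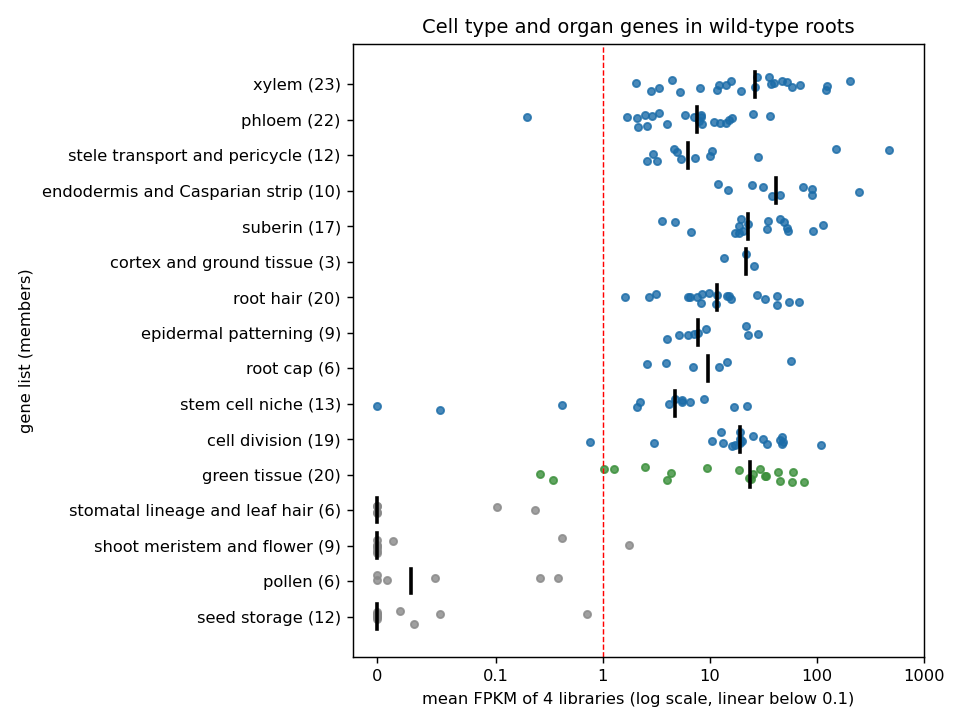
Mean FPKM of 4 wild-type libraries (x axis, log scale, linear below 0.1) for members of root cell type lists (blue), a green tissue list (green) and lists of other organs (grey). Each point is 1 gene, the black bar is the median of the list and the red line marks 1 FPKM; the endodermis list has the highest median of the root lists, 41.5 FPKM, and 20 of 33 genes of other organs lie at 0.

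Among the root lists the median level was highest for the endodermis and Casparian strip (41.5 FPKM) and lowest for the stem cell niche (4.75 FPKM). Between them lay xylem (26.4), suberin (22.7), cortex and ground tissue (22.01, 3 genes), cell division (19.1), root hair (11.6), root cap (9.56), epidermal patterning (7.67), phloem (7.55) and stele transport and pericycle (6.29 FPKM). The median over all protein-coding genes was 6.67 FPKM. The library medians of neighbours in this order lay close: xylem had 23.5, 26.4, 22.6 and 27.3 FPKM, and suberin 33.8, 30.3, 16.7 and 22.3 FPKM. The lists were chosen by name, so their order also depends on which genes stand in them. Over all lists, 10 of 295 members were dropped because the annotation does not carry the name. The endodermis and cortex lists were among those that lost members.

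In the epidermis, the hair-cell list was led by MOP10, a proline-rich wall protein of root hairs, with 63.3, 82.9, 54.4 and 71.9 FPKM. EXPA7, an expansin that loosens hair walls, averaged 42.0 ± 3.63 FPKM and PRP3, another hair wall protein, had 49.4, 78.2, 31.8 and 61.2 FPKM. The transcription factors upstream were lower: RHD6, which starts hair fate, averaged 14.5 ± 1.36 FPKM, RSL4, which sets hair length, 8.41 ± 2.36 FPKM, and RSL1 3.11 ± 1.45 FPKM. RHS15 was below 1 FPKM in replicates 1 and 3. Among the patterning genes, WER, which specifies non-hair cells, averaged 28.1 ± 5.59 FPKM, CPC, the mobile factor that represses WER targets in hair cells, 22.8 ± 3.14 FPKM, and GL2, the non-hair regulator they act on, 9.30 ± 0.837 FPKM.

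In the endodermis, CASP1, a membrane scaffold of the Casparian strip, had 277, 277, 230 and 214 FPKM and ranked at 651 among protein-coding genes. CASP2 averaged 90.6 ± 19.7 FPKM, the lignin peroxidase PER64 89.6 ± 10.2 FPKM and ESB1, a dirigent protein, 74.3 ± 6.55 FPKM. MYB36, the factor that switches these genes on, averaged 14.7 ± 1.50 FPKM, below all of its listed targets. The receptor kinase GSO1, which checks that the strip is closed, averaged 11.9 ± 0.791 FPKM. SCR, which sets endodermal identity, had 25.4, 20.7, 27.3 and 25.7 FPKM. In the ground tissue, JKD averaged 22.01 ± 0.914 and MGP 13.6 ± 1.48 FPKM; both encode zinc finger partners of SCR and SHR.

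In the stele, levels ran over a wide range. NRT1.5, which loads nitrate into the xylem, had 456, 412, 486 and 528 FPKM, and PHO1, which loads phosphate, had 146, 137, 159 and 162 FPKM. The boron transporter BOR1 averaged 28.3 ± 5.24 FPKM, the potassium channel SKOR 10.4 ± 2.17 FPKM and the sodium transporter HKT1 2.57 ± 1.08 FPKM, so the list spans high and low transporters. Xylem was led by TED6, a wall protein of differentiating vessels, with 176, 191, 203 and 248 FPKM. The vessel proteases XCP2 and XCP1 averaged 124 ± 4.51 and 121 ± 8.35 FPKM. The secondary wall cellulose synthases CESA4, CESA7 and CESA8 were at 19.6 ± 2.84, 14.1 ± 2.03 and 12.2 ± 1.51 FPKM, and the ranges of CESA7 and CESA8 overlapped while CESA4 lay above both. The master switches VND7 and VND6 were at 3.37 ± 0.634 and 2.80 ± 0.904 FPKM.

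Phloem genes were lower. PP2-A1, a sieve tube lectin, averaged 36.2 ± 9.12 FPKM, and the sucrose loader SUC2 had 24.3, 30.4, 23.3 and 23.4 FPKM. SEOR1 and SEOR2, which form the protein filaments of sieve elements, averaged 16.0 ± 1.54 and 15.2 ± 1.41 FPKM and overlapped. The phloem identity factor APL averaged 12.5 ± 1.303 FPKM. The potassium channel gene AKT2 was the one phloem member below 1 FPKM, at 0.136, 0.245, 0.214 and 0.183 FPKM.

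At the tip, CEL5, a cellulase of the root cap, led its list with 56.5, 47.1, 74.6 and 53.3 FPKM. The cap maturation factors BRN1 and SMB averaged 14.4 ± 1.18 and 12.2 ± 1.14 FPKM, and FEZ, active in cap stem cells, 2.59 ± 0.228 FPKM. In the niche, SHR, made in the stele and moving outwards, averaged 22.03 ± 1.38 FPKM, PLT3 16.9 ± 0.802 FPKM and PLT1 8.84 ± 0.475 FPKM. WOX5, the quiescent centre factor, had 6.03, 6.30, 4.49 and 5.36 FPKM and so was measured in every library. WIP4 averaged 0.415 ± 0.0638 FPKM, ERF115 was listed at 0.211 FPKM in replicate 1 and at 0 in the other 3, and CLE40 was listed at 0 in all 4.

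The cell division list holds cell cycle genes and their inhibitors. Its highest member was SIM, a cyclin-dependent kinase inhibitor that represses mitosis and promotes endoreduplication, at 111 ± 12.3 FPKM. Below it stood the replication clamps PCNA1 (48.3 ± 1.61 FPKM) and PCNA2 (47.7 ± 3.24 FPKM). The cytokinesis syntaxin KNOLLE averaged 47.2 ± 3.11 FPKM. CYCB1;1, the mitotic cyclin used as a marker of G2 and M phase, had 10.4, 10.3, 10.8 and 10.8 FPKM. CYCD6;1, which acts in the formative division of the ground tissue, stayed below 1 FPKM at 0.749 ± 0.208 FPKM.

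Of 20 photosynthesis genes of green tissue, 13 had at least 1 FPKM in all 4 libraries (65.0%), a share near the 65.4% of all protein-coding genes. Their list median was 23.8 FPKM. LHCA4, an antenna protein of photosystem I, had 105, 85.3, 54.3 and 57.7 FPKM, and RBCS1A, a small subunit of Rubisco, had 56.4, 35.3, 51.0 and 97.6 FPKM. The summed level of the list was 578, 429, 404 and 564 FPKM, highest in replicates 1 and 4. RBCS2B and RBCS1B were listed at 0 in replicates 1 to 3 and at 9.97 and 5.13 FPKM in replicate 4; these are near-identical copies, and how reads were divided between them is not given. A share of shoot or hypocotyl tissue in the samples was not tested.

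MCTP4 and MCTP3, the endoplasmic reticulum proteins of plasmodesmata whose mutants the series also holds, had 23.95, 22.9, 29.2 and 29.4 FPKM and 6.07, 6.39, 6.51 and 6.61 FPKM in wild-type roots.

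The spread between replicates was assessed over 18761 genes with a mean of at least 1 FPKM. Their median CV was 15.7%, and the middle of the distribution ran from 9.69% to 24.5%, the lower and upper quartiles. A CV under 10% was seen for 26.4% of them and one over 50% for 5.3%. Low genes varied most: the median CV of protein-coding genes was 21.3% between 1 and 10 FPKM, 12.9% between 10 and 100, 11.2% between 100 and 1000, and 13.3% at or above 1000 FPKM.

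**Figure D3:**
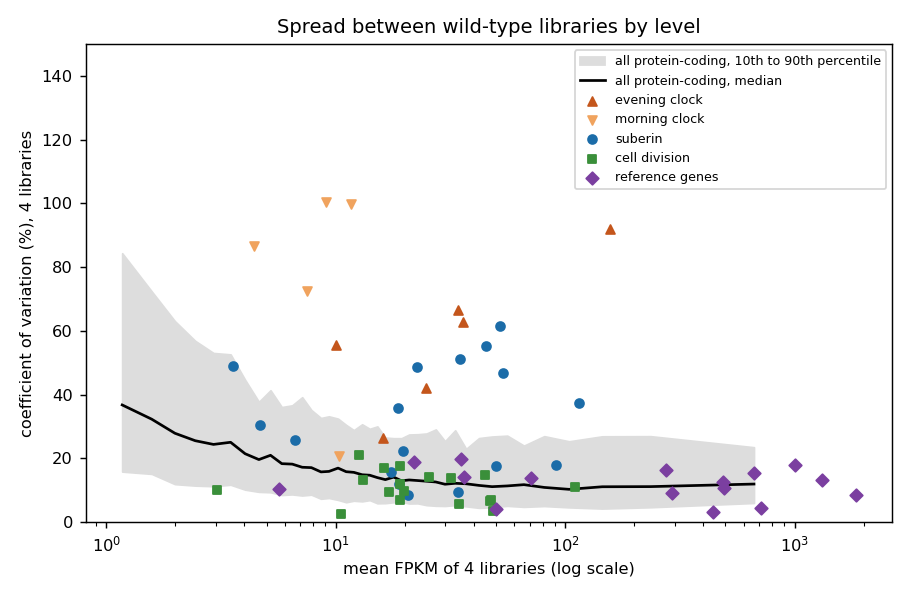
Coefficient of variation between 4 wild-type libraries (y axis, percent) against mean FPKM (x axis, log scale). The black line and grey band give the median and the 10th to 90th percentile of all protein-coding genes, and points are single genes of 5 lists; clock genes reach 100% for CCA1, while cell division genes from 1 FPKM stay at or below 20.9%.

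Common reference genes had a median CV of 12.9% over 16 genes, close to the 15.5% of all protein-coding genes from 1 FPKM. These figures are not matched for level, since the median of the reference genes was 366 FPKM. Protein-coding genes between 100 and 1000 FPKM had a median CV of 11.2%. The actin gene ACT7 had 461, 428, 439 and 436 FPKM (CV 3.26%), ACT2 721, 686, 704 and 759 FPKM (4.35%), and CBP20, a cap-binding protein, 51.9, 50.6, 49.6 and 47.2 FPKM (4.04%). PP2AA3, a phosphatase subunit in wide use as a reference, had 28.3, 30.5, 38.0 and 43.3 FPKM (19.8%), and MON1 had 17.0, 20.4, 23.8 and 26.4 FPKM (18.7%). The steadiest genes from 10 FPKM were AT1G28390, a protein kinase family member (11.3 ± 0.0476 FPKM, CV 0.422%), AT2G21190, of the ER lumen retention receptor family (48.6 ± 0.230 FPKM, 0.474%), and ERG28 (116 ± 0.831 FPKM, 0.718%).

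The 4 libraries did not vary evenly. Across all 33560 genes, log2(FPKM + 1) correlated at 0.9908 between replicates 1 and 2 and at 0.9934 between replicates 3 and 4, and at 0.9839 to 0.9869 in the other pairs. Genes are not independent, so these are descriptions. Of 11466 genes with a mean of at least 10 FPKM, 69 differed at least 2-fold between replicates 1 and 2 (0.602%) and 55 between 3 and 4 (0.48%). Between replicates 1 and 3 the number was 305 (2.66%), between 1 and 4 it was 325 (2.83%), between 2 and 3 it was 451 (3.93%), and between 2 and 4 it was 371 (3.24%). The labels give no batch, sowing date or hour of harvest for the replicates.

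**Figure D4:**
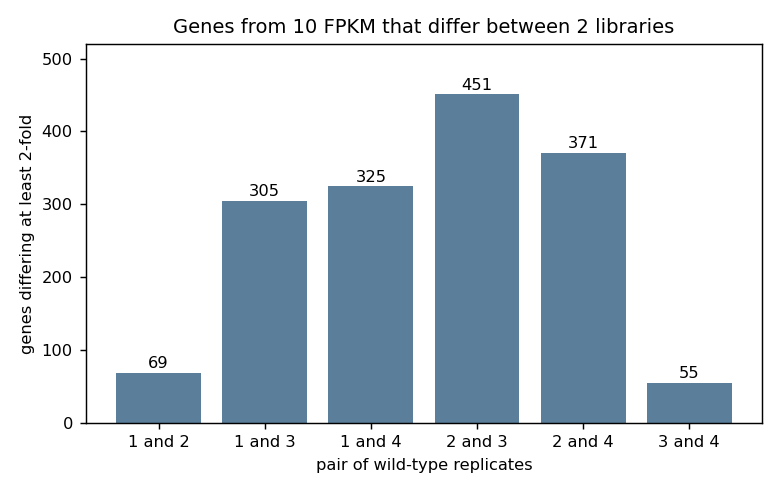
Number of genes (y axis) that differ at least 2-fold on FPKM + 1 between 2 wild-type libraries, for each pair of replicates (x axis), among genes with a mean of at least 10 FPKM. Replicates 3 and 4 differ in 55 genes and replicates 1 and 2 in 69, against 305 to 451 in the other pairs.

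The circadian clock genes, which cycle daily in level, had some of the widest spreads. CCA1, a morning factor, had 16.1, 17.9, 1.27 and 1.14 FPKM, and its partner LHY had 20.4, 23.3, 1.49 and 1.77 FPKM. TOC1, an evening factor, had 14.3, 15.2, 49.4 and 57.9 FPKM, and PRR5 had 4.68, 6.09, 13.1 and 16.3 FPKM. ELF4, of the evening complex, had 28.6, 35.8, 271 and 291 FPKM. Replicates 1 and 2 were thus high for these morning genes and low for these evening genes, without overlap. The morning gene PRR7, with 10.3, 12.5, 7.45 and 11.2 FPKM, overlapped between the pairs of replicates. GRP7, whose window holds 3 evening elements, had 959, 848, 2477 and 2041 FPKM. Like TOC1, it was higher in replicates 3 and 4, without overlap. The median CV was 86.7% over 5 morning genes and 59.2% over 6 evening genes. The windows of ELF4 and of JMJD5, which had 0.558, 0.667, 30.6 and 34.1 FPKM, held none of the 4 motifs. The part of the hour of harvest in these spreads was not tested.

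**Figure D5:**
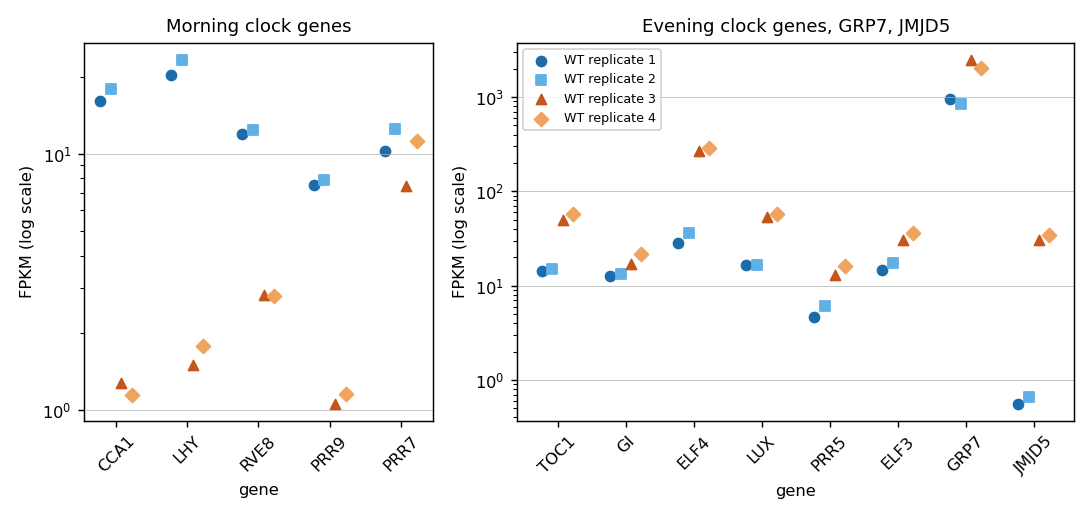
FPKM (y axis, log scale) of morning clock genes (left) and of evening clock genes, GRP7 and JMJD5 (right) in each wild-type library. Symbols stand for single libraries; CCA1 lies at 16.1 and 17.9 FPKM in replicates 1 and 2 and at 1.27 and 1.14 FPKM in replicates 3 and 4, while TOC1 lies at 14.3 and 15.2 and at 49.4 and 57.9 FPKM.

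Root cell type lists also followed this split to unequal degrees, and some did not follow it beyond the shares of all genes. Over all genes with a mean of at least 1 FPKM, replicates 1 and 2 both stood above 3 and 4 for 23.3%, and replicates 3 and 4 both stood above 1 and 2 for 39.7%. These shares depend on scaling: with libraries set level by the median of ratios they were 31.3% and 31.1%, and with FPKM rescaled to a common sum 16.2% and 49.5%. As deposited and under both scalings, all 6 evening and 4 of 5 morning clock genes differed without overlap between these pairs of replicates, with PRR7 the exception.

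Suberin genes were higher in replicates 1 and 2 in 14 of 17 cases, also under both other scalings. FAR5, a fatty acyl reductase, had 69.6, 88.6, 23.0 and 27.7 FPKM, and KCS2, which elongates the fatty acids, had 69.7, 63.5, 23.5 and 23.7 FPKM. ASFT, which attaches ferulate to suberin monomers, had 146, 158, 74.4 and 82.4 FPKM. The transporter ABCG20 (18.5, 21.7, 19.9 and 22.3 FPKM) and the regulators MYB92 (34.5, 30.4, 33.6 and 38.3 FPKM) and MYB41 (5.88, 3.06, 3.70 and 1.66 FPKM) overlapped between the pairs of replicates. Aquaporins were higher in replicates 1 and 2 in 15 of 19 cases as deposited, in 16 with the median of ratios and in 12 with FPKM rescaled to a common sum. Cell division genes from 1 FPKM were higher in replicates 3 and 4 in 12 of 18 cases, in 10 with the median of ratios and in 14 with FPKM rescaled to a common sum, with a small median CV of 10.5%.

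Other genes were high in other pairs of libraries. The stress zinc finger gene ZAT10 had 53.5, 6.44, 37.4 and 8.48 FPKM, ERF104, an ethylene response factor, had 67.0, 18.3, 48.5 and 30.5 FPKM, and CAF1a, a deadenylase, had 26.7, 2.03, 19.5 and 3.69 FPKM. Replicates 1 and 3 were the highest for each of these genes. ZAT10 and ERF104 belong to a list of touch and rapid wounding genes, and CAF1a does not. Of 9 genes of that list from 1 FPKM, 4 were highest in replicate 1 and 5 in replicate 3, against 21.2% and 18.9% of all genes. Root hair genes were highest in replicate 2 for 11 and in replicate 4 for 7 of 20, against 22.1% and 37.9% of all genes. For replicate 4 alone, the share of root hair genes was thus no higher than that of all genes. RHS19, a peroxidase, had 21.8, 44.96, 20.2 and 44.6 FPKM. IRT1, the iron importer of the epidermis, had 94.3, 153, 64.2 and 145 FPKM, and FRO2, the ferric reductase that feeds it, had 19.7, 28.3, 11.4 and 25.9 FPKM. Replicates 2 and 4 were the highest for RHS19, IRT1 and FRO2, and also for FIT, another iron deficiency gene. The other iron deficiency genes did not share this order. Of 7 in that list, 3 had replicates 1 and 2 both above 3 and 4, and 1, PDR9, had the reverse. How the roots were handled and cut is not given, and its part was not tested.

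Among protein-coding genes with a mean of at least 10 FPKM and no value listed at 0, the highest CV was that of XPL1, a phosphocholine synthesis methyltransferase, with 13.9, 5.25, 52.0 and 161 FPKM (123%). AT5G15950, annotated as an S-adenosylmethionine decarboxylase, had 77.6, 73.6, 6.87 and 6.56 FPKM. AT4G03540, annotated to the same uncharacterized protein family as CASP1, had 114, 117, 4.32 and 4.79 FPKM. PELPK2, a hydroxyproline-rich wall protein, had 354, 368, 57.8 and 56.8 FPKM. Replicates 1 and 2 were high without overlap for AT5G15950, AT4G03540 and PELPK2 and low without overlap for XPL1. XPL1 and AT5G15950 are known for conserved upstream reading frames, and how fragments from such leaders were assigned is not given, so both values are uncertain. BT2, a scaffold protein that responds to sugar and nitrogen status, had 42.9, 30.05, 149 and 203 FPKM, and CDF3, a DOF factor under clock control, had 27.8, 29.4, 6.01 and 6.87 FPKM. The CONSTANS-like gene COL9 had 4.53, 3.26, 21.3 and 25.3 FPKM, so BT2 and COL9 were higher, and CDF3 lower, in replicates 3 and 4 without overlap.

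Some of the widest spreads came from values listed at 0. In 39 genes, 28 of them protein-coding, at least 1 library was listed at 0 and another at 10 FPKM or more. Their median transcript length was 381 bases, against 1730 bases for protein-coding genes with a mean of at least 1 FPKM. NRPB12, a subunit of the RNA polymerases that every cell uses, was listed at 112, 317, 0 and 0 FPKM, and it overlaps a snoRNA gene on the same strand. A listed 0 in this matrix may therefore be a failed estimate. CLE1, a signalling peptide gene, was listed at 20.7, 107, 55.2 and 0 FPKM, and GDU7 at 0, 37.0, 0 and 13.5 FPKM.

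A single library stood apart, by a gap to its nearest neighbour above the critical share of the range in Dixon's test for 4 values, in 672 of 18761 genes (3.58%); chance gives about 1 in 20. Replicate 4 was the high one in 134 genes, replicate 2 in 123, replicate 1 in 113 and replicate 3 in 65. The low one was replicate 2 in 89 genes, replicate 1 in 74, replicate 3 in 44 and replicate 4 in 30. No library was left out.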

How the data were processed

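Total RNA of whole roots was sequenced from mRNA libraries made with a stranded kit, per the labels' protocols. HISAT2, Cufflinks and the TAIR10 build were named per the submitters' processing notes; versions and settings, also for strand, were not given in the sources used here. Deposited by the authors were FPKM for 33560 genes, so depth is unknown and no counting interval was computed. Values below 1e-06 were taken as 0, and 0 columns lacked a sample. Of the genes, 32826 matched TAIR10.1 by identifier; positions and upstream windows are from TAIR10.1, and none were converted.

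Means, SDs, CVs, correlations of log2(FPKM + 1) and Dixon ratios were computed over 4 libraries with Python 3.11.15, numpy 2.4.6 and pandas 2.3.3 and tested on simulated data. No groups were compared, so there are no p-values; signs over 4 libraries could not give a 2-sided p under 0.125. Summed FPKM ran from 905373 to 1016221 per library.

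Members and gene lists were chosen with earlier results of these data known. Named genes were the 20 coding and 5 other genes of highest mean, the 12 most and 6 least variable from 10 FPKM, and, in each list, the 3 highest, those listed at 0 and others that give the order of levels. Product classes, motifs, the genes with printed windows, JMJD5, GRP7, PBP1, CAF1a, BT2, CDF3, COL9, the variable coding genes never listed at 0, and the order of the replicates with its scalings, were chosen after their values were seen. Alternatives were other scalings, thresholds, filters and measures of spread, and leaving out each replicate.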

Additional observations from a re-analysis of the deposited data

Results flagged for a closer look

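In 17 of 221 named genes a single wild-type library lay apart from the other 3, with a gap above the critical share of the range in Dixon's test for 4 values; chance gives about 1 in 20 groups, and over all genes with a mean of at least 1 FPKM the share was 3.58%. The named genes include ones picked for their spread, and a gene with 1 value above 0 always passes, so their share is not set against either figure. Several of these are short or non-coding genes listed at 0 in the other 3 libraries: AT1G75166 at 33928 FPKM, U1.5 at 1303 FPKM, AT3G01940 at 40.5 FPKM and AT5G03285 at 45.3 FPKM in replicate 1, AT1G32670 at 9176 FPKM in replicate 2, MIR159b, listed as the precursor gene, at 132.6 FPKM in replicate 3, and AT4G39361 and AT4G39366 at 13253 and 13179 FPKM in replicate 4. The near-identical Rubisco genes RBCS3B, RBCS2B and RBCS1B were high in replicate 4, at 15.5, 9.97 and 5.13 FPKM. The sucrose transporter SUC2 was high in replicate 2, at 30.4 FPKM. The reference gene AT4G34270 was low in replicate 2, at 28.7 FPKM, and the ground tissue factor JKD was low in replicate 1, at 20.7 FPKM. SEP3 was at 0.0517 FPKM in replicate 1, VGD1 at 0.195 FPKM and OLEO2 at 0.123 FPKM in replicate 2, and each was listed at 0 elsewhere.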

How the results depend on the processing

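The median CV of 15.7% became 17.2% with FPKM rescaled to a common sum, 18.7% with no filter and 13.8% with a mean of at least 5 FPKM, and ran from 14.4% to 16.0% when 1 replicate was left out. The number of genes with 1 library apart was 1969 with no filter, against 672. The median SD of log2 values was 0.204 with a pseudocount of 1 and 0.224 with 0.1. The mean number of genes from 1 FPKM per library ran from 18609 to 18664.7, and the share of FPKM in the 100 most abundant genes from 17.3% to 18.6%, without 1 replicate each. Of 72 alternative medians for 12 lists, 64 stayed within 1 SD of the library medians. The 8 others were in the stem cell niche, xylem and phloem lists. The niche median moved under every alternative except the median of ratios, where the SD was only 0.0806 FPKM. It ran from 4.23 to 5.03 FPKM, against 4.75 FPKM as deposited. Leaving out a replicate was not run for single libraries apart, since the limit holds for 4 values. Median-of-ratios factors moved library levels by -0.046 to 0.074 on the log2 scale. No paired analysis was possible because no groups were compared. Low genes and short genes listed at 0 limit what these libraries resolve, and depth is unknown.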
